A study of Homo sapiens with 2 samples.

Results

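Glutathione synthesis and cystine uptake were followed through 10 genes, each taken with every probe that carries its name on the arrays. These were SLC7A11 and SLC3A2 for cystine uptake, GCLC, GCLM and GSS for synthesis, GSR for reduction, GGT1 for breakdown outside the cell, and GPX1, GPX2 and GPX4 for use against peroxides. They gave 19 probes, out of 41000 probes and 30238 gene names on the array, and 6 of the 10 genes had more than 1 probe. The rule that finds the probes uses gene names and no measured value. The genes themselves, and the further lists below, were chosen with earlier results of these data known.

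A2780 cells derive from a human ovarian carcinoma. The line A2780CBN was selected in rising doses up to 22.2 µM carboplatin, a platinum drug that crosslinks DNA. The line A2780CBNDXL was selected in carboplatin together with docetaxel, a taxane that stabilizes microtubules. For this combination the labels give a single value, 8.02 µM. The study's text gives that value as the IC50 of carboplatin in the combination, with a far lower IC50 for docetaxel, and not as the last selecting dose. Each line was set against its own co-cultured parental control, A2780CC, kept without the selecting drugs. No member of the pathway was altered by design in any of these cells, and each line is 1 selected population, so changes that came with the drug and changes by drift in culture cannot be told apart.

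The RNA of each line was a pool of 3 isolations, labelled against the control RNA in the other dye, and hybridized to 4 arrays, with both labelling directions on each of 2 slides. The arrays repeat 1 pooled sample, so the SD over arrays covers labelling and hybridization only, and no test across cultures was possible. The signs rest on the labelled dyes of the forward arrays, since the dye entries of the reverse arrays conflict with their name, and those were turned over as the name states. Per channel, the share of spots rated well above background ran from 59.8 to 67.5%. Array 1 of A2780CBNDXL stood apart, with a coefficient of variation of the spike-in controls of 29.0% (green) and 32.7% (red) against 8.31 to 12.2% on the other 7 arrays. Of the markers of ovarian epithelium, KRT8 and KRT18 were well above background in both lines and PAX8 was near it, while WT1, KRT7, CDH1 and MUC16 were too dim to be tested in either line. Of the 11 genes on that list, EPCAM passed the 2-fold rule as higher in both lines, at 2.07 ± 0.30 and 1.67 ± 0.24, and KRT18 as higher in A2780CBN, at 1.05 ± 0.16. Between the controls FOLR1 was higher and KRT19 lower beside A2780CBNDXL, and FOLR1 was also higher in A2780CBNDXL than in A2780CBN.

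Glutathione is a tripeptide of glutamate, cysteine and glycine and the main small thiol of the cell. Cysteine is usually the scarce part and enters largely as its oxidized dimer, cystine, through a transporter made of SLC7A11 and SLC3A2. Glutathione is spent on peroxides by the glutathione peroxidases and on electrophiles, among them platinum drugs, which it can bind.

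The probes that the main results turn on are given by the first 30 of their 60 bases, 5′ to 3′, to fix what each value measures. Coordinates are those of the array files on NCBI36, and exon or UTR annotation of that build was not used here. The probes of SLC7A11 lie on the minus strand of chromosome 4, at chr4:139308284-139308343, chr4:139306007-139306066 and chr4:139311557-139311616 in the order printed. The probes of GCLC lie on the minus strand of chromosome 6, at chr6:53470156-53470215 and chr6:53471396-53471459, and those of GCLM on the minus strand of chromosome 1, at chr1:94123842-94123901 and chr1:94127122-94127181.
SLC7A11 A_32_P165477: cattttgctttcctaaccattcagtcagga
SLC7A11 A_32_P42684: ttactgatactaaatgttggctacctgtga
SLC7A11 A_24_P200420: tgtaatcatatctacatgcaatgttagtaa
GCLC A_23_P145114: agaatgcctggttttcgtttgcaatttgct
GCLC A_23_P352879: ctctcagcccgtgtgtataatatgaagacc
GCLM A_32_P177953: atttattgtatgttggctagcagttcatcc
GCLM A_23_P103996: atcaaatcaaaaggctacattttacaagct

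In A2780CBN, GCLC was higher than in the control, 8.50-fold, and none of the other 9 genes passed the 2-fold rule. In A2780CBNDXL, SLC7A11, GCLC and GCLM were lower than in the control and GGT1 was higher, 2.20-fold. In RNA of whole cultures fewer cells with a transcript and less of it per cell cannot be told apart. The rule asked for a mean log2 ratio of resistant line over control of at least 1 in size and an unchanged sign over the 4 arrays. It also asked that the same channel, line or control, be well above background on all 4 arrays, with a gene taken as its brightest probe. By this rule 1 of 10 genes changed in A2780CBN, beside 12.6% of all genes tested, and 4 of 8 tested genes changed in A2780CBNDXL, beside 17.0% of all genes tested. By direction the background in A2780CBN was 8.01% higher and 4.57% lower, and in A2780CBNDXL it was 7.72% higher and 9.23% lower. The median log2 ratio of the tested members was 0.10 in A2780CBN and -0.80 in A2780CBNDXL, beside -0.06 and 0.04 over all genes tested. The latter median stayed at -0.80 with SLC7A11 set to its bound, given with that gene. Without array 1 the same 4 genes passed in A2780CBNDXL, with GCLC at -1.22, GCLM at -1.86, SLC7A11 at -5.61 and GGT1 at 1.14. The 2 genes not tested in A2780CBNDXL were GSS, whose only spot on array 3 carried an outlier mark, and GPX2, which was too dim.

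**Figure D1:**
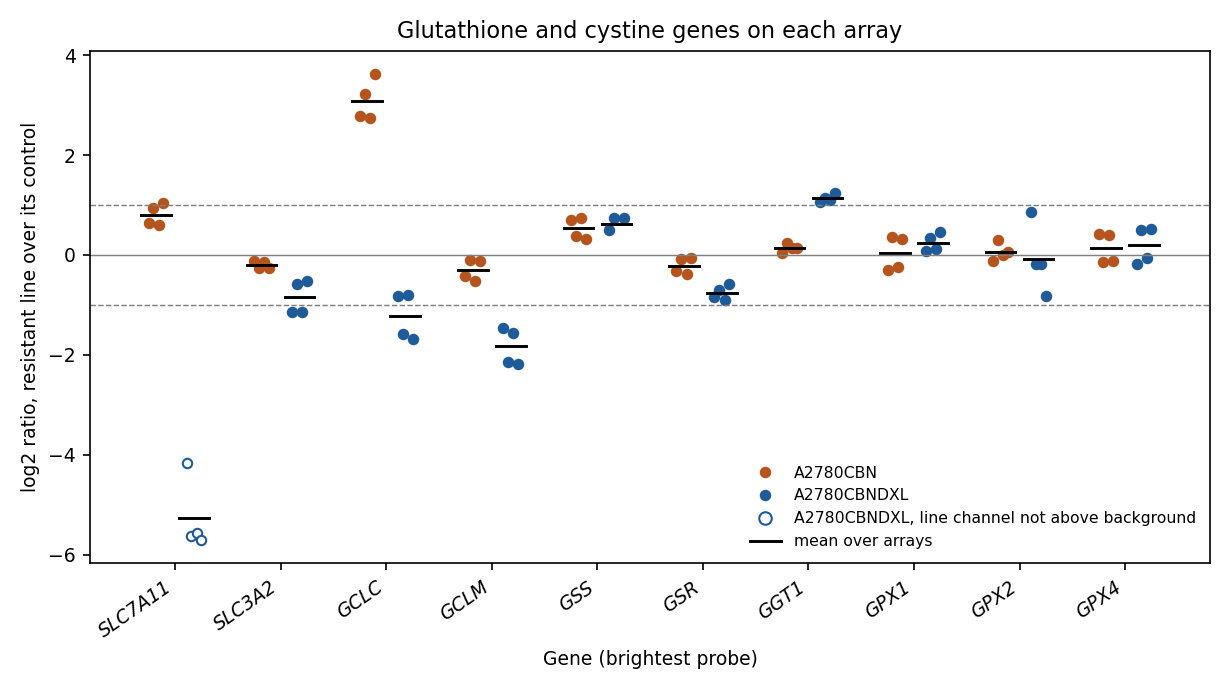
Log2 ratio of each resistant line over its co-cultured control for the 10 genes, with 1 point per array and a bar at the mean; dashed lines mark 2-fold and open points mark a line channel not above background. GCLC sits near 3 in A2780CBN and below 0 in A2780CBNDXL, SLC7A11 lies below -4 on all 4 arrays of A2780CBNDXL, and the peroxidases lie around 0.

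SLC7A11 is the subunit of the cystine transporter that carries the amino acids, exchanging cystine for glutamate. On its brightest probe the processed signals of A2780CBNDXL were 7.66, 6.53, 5.06 and 5.58 on arrays 1 to 4, and none of them was well above background. The signals of its control on the same arrays were 138, 322, 237 and 289, all well above background. The highest signal of the line was thus far under the lowest of its control, and the groups did not overlap.

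The log2 ratios were -4.17, -5.62, -5.55 and -5.70, with a mean of -5.26 ± 0.73 (SD, 4 arrays), and array 1 held the smallest difference. Since the line channel was at background, the size of this value is not a measurement of the fold. SLC7A11 was at least 11.5-fold lower in A2780CBNDXL than in its control on this probe, where the bound sets the mean of the control against the dimmest signal that an array still rated above background, after scaling between arrays by the Aquantile method. The probe A_32_P42684 gave at least 9.27-fold, with a log2 ratio of -4.99 ± 0.35. Both bounds rest on that choice of limit, and a higher limit would lower them. On the probe A_24_P200420 both channels were below background on all 4 arrays, so it gave no value. It holds 14 G and C among its 60 bases, against 21 in each of the other probes of the gene.

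In A2780CBN the same brightest probe gave signals of 754, 712, 606 and 816, against 485, 373, 401 and 395 in its control. The line was higher on every array, with log2 ratios of 0.64, 0.93, 0.60 and 1.05 and a mean of 0.80 ± 0.22, which is under the 2-fold limit. The probes disagreed on the call, since A_32_P42684 gave 1.01 ± 0.17 and passed, and the dim A_24_P200420 gave 0.62 ± 0.35. With normexp (offset 50) and loess in place of the processed signals, SLC7A11 in A2780CBNDXL came to -0.98 and missed the limit, and with background-subtracted signals a negative value on array 3 left it untested.

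SLC3A2 is the heavy chain that brings SLC7A11 and several other amino acid transporters to the cell surface. Its log2 ratios in A2780CBNDXL were -1.15, -0.59, -1.14 and -0.52 on the brightest probe, a mean of -0.85 ± 0.34. All 4 were below 0, and the values with the line in Cy5 were further from 0 than those with the line in Cy3. The other probe, A_23_P75811, gave -0.80 ± 0.61 with the same split by dye. In A2780CBN the brightest probe gave -0.19 ± 0.08 and the other -0.06 ± 0.33. SLC3A2 therefore did not pass the rule against its control in either line over all 4 arrays. In A2780CBNDXL it passed on the forward arrays alone. Against the control of A2780CBN it also passed, at -1.22 on the brightest probe and -1.34 on the other.

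GCLC is the catalytic subunit of glutamate-cysteine ligase, the enzyme of the first and rate-limiting step of glutathione synthesis. In A2780CBN its brightest probe gave 5976, 6861, 6507 and 8286 on arrays 1 to 4, against 871, 737, 978 and 674 in the control. The lowest signal of the line was several times the highest of the control. The log2 ratios were 2.78, 3.22, 2.73 and 3.62, with a mean of 3.09 ± 0.42, and the probe A_23_P352879 gave 3.52 ± 0.36. The study itself reports GCLC as raised in A2780CBN on these arrays, by QPCR and, for the protein, by immunoblot.

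In A2780CBNDXL the signals of GCLC were 413, 481, 623 and 528, against 730, 1448, 1084 and 1694 in the control. Each value of the line was under that of the control on its own array, and the groups did not overlap. The log2 ratios split by labelling direction, with -0.82 and -0.80 where the line carried Cy5 and -1.59 and -1.68 where it carried Cy3. Their mean was -1.22 ± 0.48, or 2.33-fold lower, and A_23_P352879 gave -1.15 ± 0.16. The study itself lists GCLC in A2780CBNDXL as not significantly different, both on its arrays and by QPCR against the parental line. The reverse arrays alone gave -1.64 and passed the rule. The forward arrays alone gave -0.81, normexp with loess -0.92, and the control of A2780CBN in place of its own control -0.79, all under the 2-fold limit.

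GCLM is the modifier subunit of the same ligase and makes the enzyme less sensitive to feedback by glutathione. In A2780CBNDXL its brightest probe gave signals of 640, 634, 651 and 543, against 1751, 2774, 1920 and 2446 in the control. The log2 ratios were -1.45, -2.13, -1.56 and -2.17, a mean of -1.83 ± 0.38, or 3.55-fold lower. The probe A_23_P103996 gave -1.57, -1.50, -1.55 and -1.62, a mean of -1.56 ± 0.05 and the smallest spread of any member probe in this line.

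In A2780CBN, where GCLC was raised, GCLM was not. Its brightest probe gave log2 ratios of -0.42, -0.11, -0.51 and -0.13, a mean of -0.29 ± 0.20, and the other probe gave 0.03 ± 0.19. Of the subunits of the ligase, the catalytic one alone passed the rule in A2780CBN, while both were lower than the control in A2780CBNDXL.

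**Figure D2:**
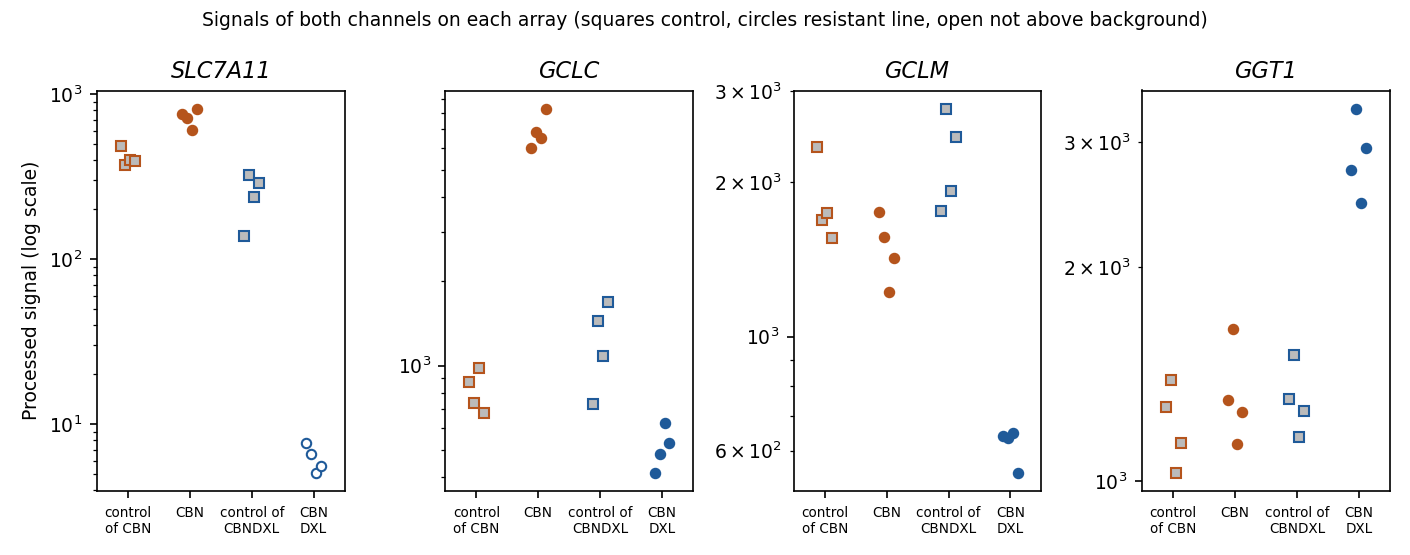
Processed signal, on a log scale, of the brightest probe of SLC7A11, GCLC, GCLM and GGT1 on each of the 8 arrays, with squares for the control and circles for the resistant line. Signals are normalized within an array only, and each panel has its own axis; the open circles of SLC7A11 in A2780CBNDXL, 5.06 to 7.66, were not above background.

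GSS adds glycine in the second step of synthesis. In A2780CBN its log2 ratios were 0.71, 0.38, 0.74 and 0.31, a mean of 0.53 ± 0.22, positive on all 4 arrays and under the limit. In A2780CBNDXL the 3 arrays without an outlier mark gave 0.51, 0.75 and 0.73, with a mean of 0.62 ± 0.13. The ratio was thus positive in both lines on every array that measured it.

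GSR returns oxidized glutathione to its reduced form with NADPH. In A2780CBN its log2 ratios were -0.33, -0.08, -0.39 and -0.06, with a mean of -0.21 ± 0.17. In A2780CBNDXL they were -0.84, -0.70, -0.90 and -0.57, with a mean of -0.75 ± 0.15, or 1.69-fold lower, and a further probe, A_32_P31618, gave -0.54 ± 0.24. All values were below 0 and none of the probes reached the limit.

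GGT1 cleaves glutathione on the outer face of the cell, which makes its amino acids available again. In A2780CBNDXL the brightest of its 4 probes gave signals of 2736, 3340, 2461 and 2940, against 1304, 1507, 1154 and 1253 in the control. The log2 ratios were 1.07, 1.15, 1.09 and 1.23, with a mean of 1.14 ± 0.07, and the groups did not overlap. Over the 4 probes the means ranged from 1.14 to 1.54 in A2780CBNDXL, and all 4 passed the rule. With normexp and loess the brightest probe did not pass in A2780CBNDXL. In A2780CBN the means of the 4 probes ranged from 0.14 to 0.34, and none passed.

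These probes are not independent and may not be specific. They fall in one stretch of chromosome 22 on the plus strand, and A_23_P154986, at chr22:23353862-23353921, and A_24_P178175, at chr22:23353871-23353930, share 51 bases with 2 differences, marked in capitals.
GGT1 A_23_P154986: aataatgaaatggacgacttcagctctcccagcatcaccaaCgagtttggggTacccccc
GGT1 A_24_P178175: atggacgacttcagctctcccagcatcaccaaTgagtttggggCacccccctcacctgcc
GGT1 belongs to a family of near-identical copies. GGTLC1 and GGTLC2, light-chain copies with probes of their own, were also higher in A2780CBNDXL, with log2 ratios of 1.46 ± 0.16 and 1.45 ± 0.06, and at 0.47 ± 0.40 and 0.35 ± 0.09 in A2780CBN. Signal of one copy on the probes of another was not tested, so the value of GGT1 is uncertain as to which copy it measures.

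GPX1 reduces hydrogen peroxide in the cytosol, GPX2 does so mainly in epithelia of the gut, and GPX4 reduces lipid peroxides in membranes. GPX1 had log2 ratios of -0.30, 0.35, -0.24 and 0.32 in A2780CBN, a mean of 0.03 ± 0.35. In A2780CBNDXL they were 0.07, 0.34, 0.11 and 0.46, a mean of 0.25 ± 0.19. The values of A2780CBN changed sign with the labelling direction, and their mean, which holds both directions equally, was near 0.

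GPX4 had log2 ratios of 0.42, -0.14, 0.41 and -0.11 in A2780CBN, a mean of 0.14 ± 0.31. In A2780CBNDXL they were -0.18, 0.51, -0.05 and 0.51, a mean of 0.20 ± 0.37. Within each line the sign changed with the labelling direction, in opposite ways in the lines, and both means were smaller than their SD. GPX2 was close to background, with signals of 32.7 to 59.9 in the line A2780CBN. Its log2 ratios were 0.06 ± 0.17 in A2780CBN and -0.08 ± 0.70 in A2780CBNDXL, and it was tested against the control in A2780CBN only.

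Since each line had its own control, the lines were also set against each other, and the controls against each other, on matched arrays of the same slide and dye after Aquantile scaling. Between the lines 4 of 9 tested members were lower in A2780CBNDXL, beside 9.83% of all genes lower and 16.5% changed, and none was higher, beside 6.66% of all genes. Between the controls 0 of 9 members passed the same 2-fold rule, beside 4.71% of all genes, 3.35% higher and 1.36% lower. No p value belongs to these counts, since each RNA is 1 sample.

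GCLC differed most among the members measured in both lines, with log2 differences of -3.68, -4.14, -3.47 and -4.23, a mean of -3.88 ± 0.37. The control of A2780CBNDXL minus that of A2780CBN was 0.43 ± 0.53, with values from -0.08 to 1.07. On the scaled log2 scale GCLC stood at 12.82 ± 0.27 in A2780CBN, 10.16 ± 0.40 in the control of A2780CBNDXL, 9.73 ± 0.20 in the control of A2780CBN, and 8.94 ± 0.25 in A2780CBNDXL. On this brightest probe the ranges over arrays of the controls overlapped, and both lines stood outside them, on opposite sides. On A_23_P352879 A2780CBNDXL, at 7.04 to 7.96, overlapped the control of A2780CBN, at 7.84 to 8.43.

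SLC7A11 stood at 9.53 ± 0.20 in A2780CBN, 8.72 ± 0.14 in its control, 7.84 ± 0.43 in the control of A2780CBNDXL, and at background in A2780CBNDXL. None of these ranges overlapped. The controls differed by -0.88 ± 0.55, with -1.63, -0.34, -0.90 and -0.65 on the matched pairs, so that A2780CBN against the other control came to 1.69 and would have passed the rule. By the same kind of limit SLC7A11 was at least 36.9-fold lower in A2780CBNDXL than in A2780CBN on this probe. It was at least 20.4-fold lower on A_32_P42684. On A_32_P42684 the controls differed by -0.14 ± 0.47.

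GCLM stood at 11.03 ± 0.15 and 10.88 ± 0.19 in the controls, which overlapped, at 10.59 ± 0.18 in A2780CBN and at 9.20 ± 0.23 in A2780CBNDXL. Its difference between the lines was -1.39 ± 0.31, and -1.42 ± 0.06 on the other probe. SLC3A2 was lower in A2780CBNDXL than in A2780CBN by -1.02 ± 0.15 on its brightest probe and by -1.28 ± 0.28 on the other, although neither passed against the control. The controls differed by -0.37 ± 0.50 and -0.54 ± 0.84 on these probes, and the brightest probe missed the limit at -0.96 without matched pair 1, at -0.97 without pair 2, at -0.90 on slide 2 alone, at -0.97 on the forward arrays alone and at -0.89 with no scaling between arrays. GCLC, GCLM and SLC7A11 passed between the lines without each pair. GGT1 missed the limit between the lines at 0.98 ± 0.22 on its brightest probe, while its other 3 probes gave 1.54 to 1.72 and passed.

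The remaining members showed small differences between the lines. GSR was lower by -0.47 ± 0.16 on its brightest probe, where its level in A2780CBNDXL did not overlap the other 3 RNAs. On A_32_P31618 it was lower by -0.38 ± 0.14, and the ranges of the lines overlapped. GPX1 differed by 0.38 ± 0.38, GPX4 by 0.21 ± 0.17 and GPX2 by -0.04 ± 0.61, and the ranges of all 4 RNAs overlapped from neighbour to neighbour for each of these genes.

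**Figure D3:**
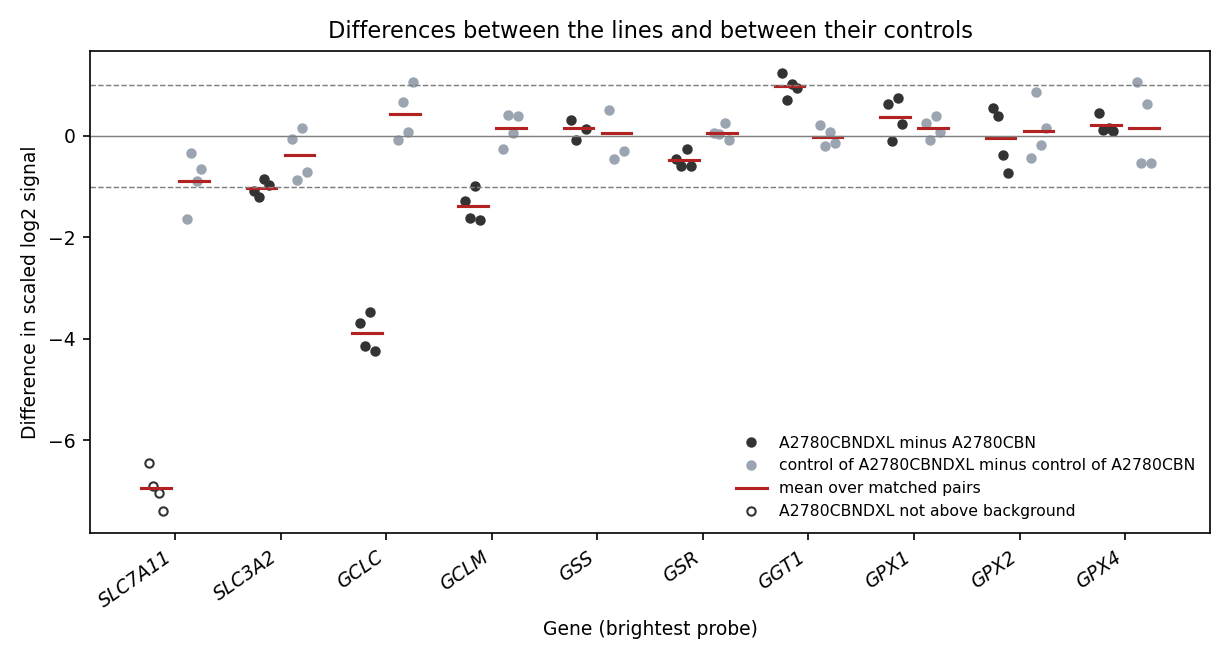
Difference in Aquantile-scaled log2 signal on matched arrays for the 10 genes, dark points for A2780CBNDXL minus A2780CBN and grey points for the control of A2780CBNDXL minus that of A2780CBN, with a bar at each mean and dashed lines at 2-fold. GCLC lies near -3.9 and SLC7A11 near -7 between the lines, where the open points were not above background in A2780CBNDXL, while the mean of every gene between the controls lies within 2-fold.

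The genes whose ratios over the 8 arrays lay nearest to those of GCLC, by root mean square distance among 16034 genes, were SLITRK6, DDX60, PARP14, SLC38A4 and ABCC8, at distances of 0.32 to 0.49. SLITRK6, the nearest, had log2 ratios of 3.25 ± 0.27 in A2780CBN and -0.97 ± 0.40 in A2780CBNDXL. Those nearest to GCLM were FAM162A, PARP8, ITPR1, TMEM123 and NR4A3, at 0.07 to 0.18. The likeness is one of values over arrays of 2 samples and gives no more than that.

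The other genes of glutathione metabolism were taken in 8 lists of 82 genes, of which 80 were on the array and 60 were tested in each line. In A2780CBN 8 were higher and 1 lower, 15% of those tested, with a median log2 ratio of 0.04. In A2780CBNDXL 6 were higher and 10 lower, 26.7% of those tested, with a median of -0.31. The background shares are those given for all genes, 12.6% and 17.0%.

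In the gamma-glutamyl cycle, which breaks glutathione down and recovers its parts, 0 of 9 tested genes passed in A2780CBN, and 2 were higher and 2 lower of 8 in A2780CBNDXL. The higher genes were the GGT1 copies above. CHAC1 and CHAC2, which cleave glutathione inside the cell, were lower, at -1.71 ± 0.20 and -1.76 ± 0.09. In A2780CBN they were at 0.15 ± 0.24 and 0.16 ± 0.35.

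Of 11 tested genes that supply cysteine and glutamate, 4 were higher in A2780CBN, and 4 were lower in A2780CBNDXL. CTH, which makes cysteine from cystathionine, was at 1.14 ± 0.53 in A2780CBN and -0.32 ± 0.18 in A2780CBNDXL, and its controls differed by 1.39 on matched arrays. SLC1A4, a transporter of neutral amino acids, was at 1.02 ± 0.14 and -1.68 ± 0.23. GLS2, which makes glutamate from glutamine, was at 1.43 ± 0.24 in A2780CBN and -1.58 ± 0.19 in A2780CBNDXL. It was above background in the latter line on 1 of 4 arrays, and its controls differed by 1.24.

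GLUL, which runs the reverse reaction to glutamine, was at 1.39 ± 0.14 and -0.59 ± 0.22. MTR, the methionine synthase, was at -0.54 ± 0.30 and -1.09 ± 0.32. SLC1A3, a glutamate transporter, was at 0.31 ± 0.09 and -1.42 ± 0.54, with A2780CBNDXL above background on 3 of 4 arrays.

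SLC3A2 also carries other light chains, and all 5 listed were tested, with 2 higher in A2780CBN and 2 higher and 2 lower in A2780CBNDXL. SLC7A5, the light chain for large neutral amino acids, was at -2.53 ± 0.33 in A2780CBNDXL and -0.67 ± 0.43 in A2780CBN. SLC7A7 was at -2.85 ± 0.08, with A2780CBNDXL above background on 2 of 4 arrays, and 0.29 ± 0.20. SLC7A8 was higher in both lines, at 1.52 ± 0.12 in A2780CBNDXL and 1.55 ± 0.15 in A2780CBN, although its controls differed by 1.11, and so was SLC7A10, at 2.21 ± 0.26 and 2.18 ± 0.32. The partners of SLC3A2 therefore did not share 1 direction.

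Among the other glutathione peroxidases GPX3 alone of 3 tested genes passed in A2780CBN, at -1.39 ± 0.51, and 0 of 3 passed in A2780CBNDXL. Of the glutaredoxins, thioredoxins and peroxiredoxins GLRX passed among 13 genes in A2780CBN, at 1.43 ± 0.06, with controls that differed by 1.04, and TXNRD2 among 12 in A2780CBNDXL, at 1.22 ± 0.67. Of the NADPH genes PGLS passed among 8 in A2780CBNDXL, at 1.10 ± 0.07 on its brightest probe, and 0 of 7 passed in A2780CBN, where its brightest probe was at 0.91 ± 0.44 and the other was below 0 on all 4 arrays, at -1.13 to -0.95, and passed as lower. Of the genes of selenoprotein synthesis, on which GPX1 and GPX4 depend, SEPSECS passed in A2780CBN, at 1.06 ± 0.21, and 0 of 6 passed in A2780CBNDXL. Against the control of the other line these values of A2780CBN fell under the limit, with GPX3 at -0.94, GLRX at 0.39 and SEPSECS at 0.61.

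Of the regulators 0 of 6 tested genes passed in A2780CBN and 2 of 7, both lower, in A2780CBNDXL. NFE2L2, which encodes NRF2 and drives GCLC, GCLM and SLC7A11 under oxidative stress, was at 0.06 ± 0.15 in A2780CBN and at 0.10 ± 0.40 on 3 arrays of A2780CBNDXL. KEAP1, its inhibitor, was at 0.09 ± 0.15 and 0.73 ± 0.47. BACH1, a repressor of the same targets, was at -0.09 ± 0.14 and -0.52 ± 0.48.

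ATF4, a factor of the amino acid response known to drive SLC7A11, SLC3A2, CHAC1 and SLC7A5, was lower in A2780CBNDXL, at -2.12 ± 0.12 on its brightest probe and -1.36 ± 0.27 on the other. In A2780CBN the brightest probe was measured on 2 arrays only, and the other gave -0.15 ± 0.18. MAFF, a small MAF protein, was at -1.78 ± 0.25 in A2780CBNDXL and 0.02 ± 0.09 in A2780CBN, while its controls differed by 1.04. NFE2L1 was not tested on its brightest probe for outlier marks, and its other 3 probes gave 0.79 to 1.30 in A2780CBN, of which 2 passed. The role of any of these genes in the values of the members was not tested.

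**Figure D4:**
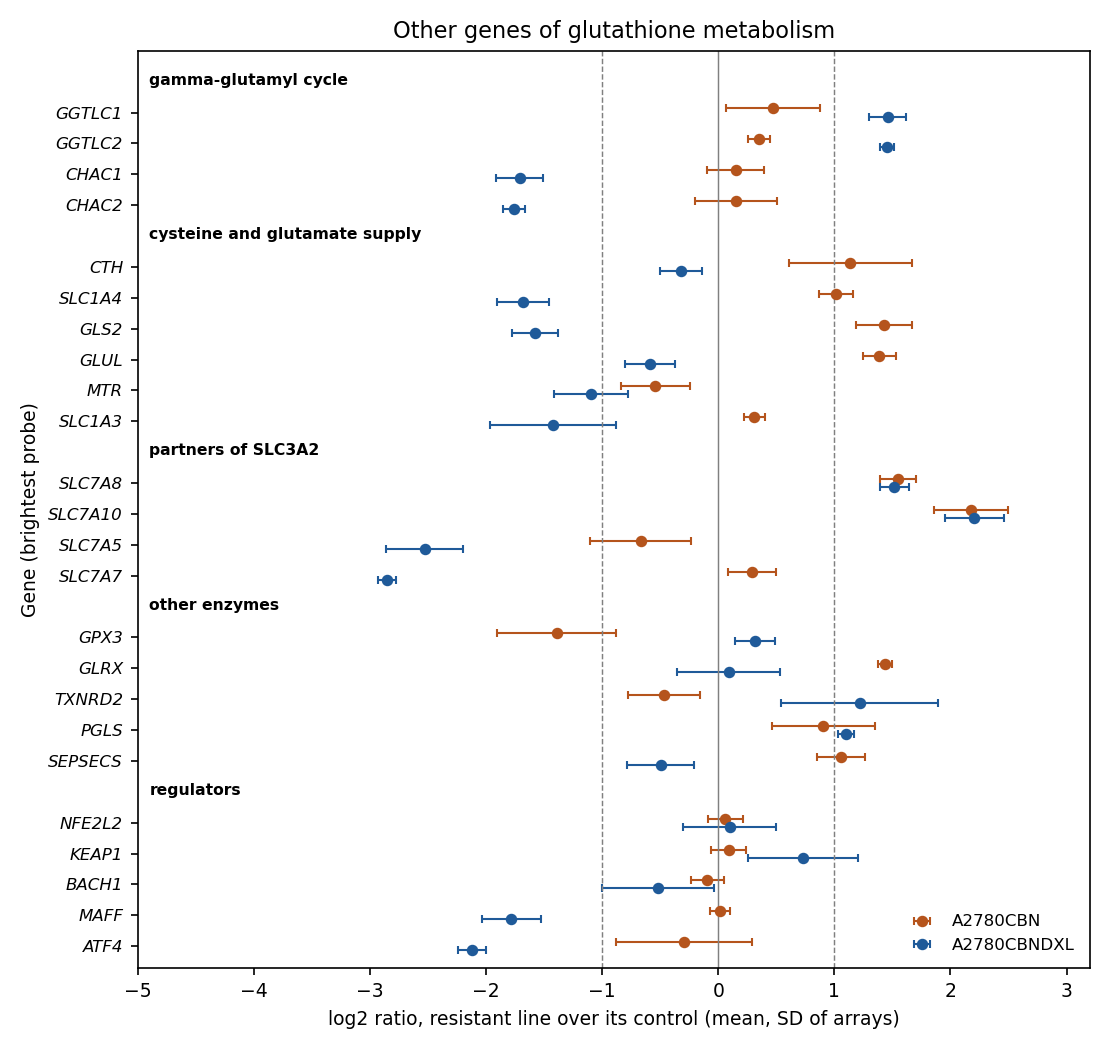
Mean log2 ratio of resistant line over control with the SD over arrays for the genes of the other lists that passed the 2-fold rule in either line, and for NFE2L2, KEAP1, BACH1 and ATF4. Dashed lines mark 2-fold; CHAC1, CHAC2, SLC7A5, SLC7A7 and ATF4 lie left of -1 in A2780CBNDXL only, and SLC7A8 and SLC7A10 lie right of 1 in both lines.

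Promoters are shown for the members on which such factors bear, as the 250 bases before the transcript start in RefSeq (GRCh38.p14), with a match to the antioxidant response element core in capitals. They are those of GCLC, on the minus strand at chr6:53545102-53545351, of GCLM, on the minus strand at chr1:93909431-93909680, and of 1 of 3 starts of SLC3A2, on the plus strand at chr11:62881449-62881698. Promoters of 7 of the 10 members were at hand. Those of SLC7A11, GSS and GSR were not, so they were neither shown nor searched.
GCLC: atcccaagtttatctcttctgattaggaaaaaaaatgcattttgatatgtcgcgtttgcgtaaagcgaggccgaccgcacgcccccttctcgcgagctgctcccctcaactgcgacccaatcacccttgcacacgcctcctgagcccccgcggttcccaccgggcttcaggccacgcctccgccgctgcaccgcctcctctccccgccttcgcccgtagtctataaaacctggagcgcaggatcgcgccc
GCLM: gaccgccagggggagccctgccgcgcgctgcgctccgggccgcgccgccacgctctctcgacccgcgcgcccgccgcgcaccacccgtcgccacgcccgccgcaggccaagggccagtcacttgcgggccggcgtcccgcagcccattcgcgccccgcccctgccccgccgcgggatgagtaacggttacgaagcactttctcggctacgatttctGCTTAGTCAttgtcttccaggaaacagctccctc
SLC3A2: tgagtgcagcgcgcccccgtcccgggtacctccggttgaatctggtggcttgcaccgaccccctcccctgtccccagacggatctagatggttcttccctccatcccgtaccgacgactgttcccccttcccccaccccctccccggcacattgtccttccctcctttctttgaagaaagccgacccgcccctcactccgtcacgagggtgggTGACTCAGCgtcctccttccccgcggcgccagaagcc

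Windows of 300 bases, which add 50 bases after the start, were searched on both strands for TGACNNNGC, the antioxidant core, and TGATGNAA, the core of the ATF4 element. Of the 12 windows of the 7 members, 4 held the antioxidant core, in GCLM 34 bases before the start, in SLC3A2 37 before, in GPX2 122 before and in a start of GGT1 29 before. The match in SLC3A2 overlaps the AP-1 motif TGANTCA. Among all 35114 windows 13.3% held the antioxidant core and 3.62% the ATF4 core, which 1 member window held, that of SLC3A2, 37 bases after the start. Such a match is a description of the letters and not a site of binding, and the window of GCLC held neither.

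Among the markers of other cells, those of fibroblasts changed in both lines and are given beside these results. Of 5 fibroblast markers 3 were higher and 1 lower in A2780CBN, beside 12.6% of all genes changed. In A2780CBNDXL 3 of 4 tested were higher and 1 lower, beside 17.0% of all genes changed. DCN was at 2.21 ± 0.46 and 3.62 ± 0.29, COL1A2, above background in 3 of 4 line channels of A2780CBN, at -5.67 ± 0.15 and -2.81 ± 0.07, and the controls differed by 2.04 in COL1A2 and 2.84 in DCN. The endothelial markers PECAM1, CDH5 and VWF and the leukocyte marker PTPRC were too dim to be tested in both lines, and the other 2 leukocyte markers did not pass the rule. The part of these markers in the values of the members was not tested.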

How the data were processed

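The authors scanned 2-colour Agilent whole human genome arrays and deposited what Agilent's Feature Extraction program wrote per array, in version 10.7.1.1 (slide 1) or 10.7.3.1 (slide 2). The processed intensity of each channel in these deposited files has had its background subtracted and trends over the slide and between dyes removed, array by array, with a surrogate in place of signals near the background. Deposited mean, background and background-subtracted intensities served only for alternatives.

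Saturated spots were not found, spots with an outlier mark were dropped, and spots of a probe were averaged. For each labelling direction the log2 ratios of line over control were averaged, and the mean of both directions was taken. Members were found by the gene name in the files alone. Named genes were all members, every gene of the other lists that passed the 2-fold rule in either line, NFE2L2, KEAP1, ATF4 and BACH1, and the 5 genes nearest to GCLC and to GCLM. Marker genes are named as a check of the cells. One item of these lists is not reported here. The members and lists were chosen with earlier results of these data known. With 1 pooled sample per line no test across samples was run, and the number of arrays limits the precision. The 3-way ANOVA of the methods and limma, run as alternatives, measure array error only.

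The alternatives were normexp with an offset of 50 and loess, median-centred background-subtracted signals, each array or matched pair left out, each slide and each labelling direction alone, the mean over probes, other filters on dim probes, fold limits of 1.5 and 3, the control of the other line, and, between arrays, no scaling or quantile normalization. Use of genes with at least 3 arrays without an outlier mark was added after seeing the data. The 2-fold rule, limma and the ANOVA were tested on simulated log2 ratios of line over control. The steps before the ratios, the scaling between arrays, the bounds and the motif search were not simulated. Work was done in Python 3.11.15 with matplotlib 3.10.9, scipy 1.17.1, pandas 2.3.3 and numpy 2.4.6, and in R 4.3.3 with limma 3.58.1.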

Additional observations from a re-analysis of the deposited data

Results flagged for a closer look

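For 11 genes every array of A2780CBN moved one way and every array of A2780CBNDXL the other, and at least one of the lines passed the 2-fold rule. They were 11 of the 62 members and list genes tested in both lines, or 17.7%, beside 827 of 16132, or 5.13%, of all genes, and 2 of the 8 members. The differences were not tested, since each line is 1 sample. The members and lists were chosen with earlier results of these data known, so their share cannot be weighed against that of all genes. Among the members these were GCLC, at 3.09 in A2780CBN and -1.22 in A2780CBNDXL, and SLC7A11, at 0.80 and -5.26, where the latter value lies at background.

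Of the genes that supply cysteine and glutamate, CTH was at 1.14 and -0.32, SLC1A3 at 0.31 and -1.42, SLC1A4 at 1.02 and -1.68, GLS2 at 1.43 and -1.58 and GLUL at 1.39 and -0.59. The others were SLC7A7, at 0.29 and -2.85, GPX3, at -1.39 and 0.32, TXNRD2, at -0.46 and 1.22, and SEPSECS, at 1.06 and -0.50. All values are mean log2 ratios of line over control, in that order of lines. CTH in A2780CBN came to -0.26 against the control of the other line, and its controls differed by 1.39.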

How the results depend on the processing

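Under the alternatives run, GCLC in A2780CBN, GCLM in A2780CBNDXL and the differences of GCLC, GCLM and SLC7A11 between the lines kept their direction and passed the 2-fold rule each time a log2 value was recomputed. Normexp and background-subtracted signals were run for line over control only, so the differences between the lines were not put to them. The filter that asked for both channels above background recomputed no log2 value. It left SLC7A11 untested in both comparisons, with 3 members changed in A2780CBNDXL over its control and 3 between the lines. The one called value to change sign was CTH in A2780CBN, at -0.26 against the control of the other line.

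The fold limit and normexp moved most counts. Genes changed in A2780CBN were 2259, and 608 under normexp, 4868 at a limit of 1.5 and 1127 at 3. In A2780CBNDXL they were 2902, and 1177, 5713 and 1471. Between the lines they were 2816, and 5310 at 1.5, 1661 at 3 and 1754 with both channels above background. Between the controls they were 794, and 2222 at 1.5, 234 at 3, 1298 on the forward and 1867 on the reverse arrays.

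Members changed in A2780CBN were 1, and 2 at a limit of 1.5 or against the other control. In A2780CBNDXL they were 4, and 1, GCLM, under normexp and 2 at a limit of 3. On the forward arrays alone and against the control of A2780CBN the count was still 4, with SLC3A2 in place of GCLC. Between the lines they were 4, and 2 at 3. Between the controls they were 0, and 1 at 1.5 or on the forward arrays. Genes of the other lists were 9 in A2780CBN, and 2 under normexp, 17 at 1.5 and 1 at 3. In A2780CBNDXL they were 16, and 9 under normexp, 28 at 1.5 and 8 at 3. Between the controls they were 5, and 9 on the reverse arrays and 0 at 3. The normexp alternative changed the background correction, the offset and the normalization together, and the cause of these moves was not tested.

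With each array or matched pair left out, members changed stayed at 1 in A2780CBN and 4 in A2780CBNDXL, ranged from 3 to 5 between the lines, and from 0 to 1 between the controls, the 1 being SLC7A11 at -1.07 without pair 3. The counts of the other lists ranged from 8 to 9, 16 to 17, 14 to 17 and 4 to 5, and those of all genes from 2290 to 2335, 2909 to 3197, 2878 to 3173 and 832 to 967, in the same order.

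With the slide as a replicate block, limma at an adjusted p of 0.05 and 2-fold listed 2265 genes, 1 member and 9 list genes in A2780CBN and 2907, 4 and 16 in A2780CBNDXL. The 3-way ANOVA listed 2226 and 2671 genes, with 1 and 4 members. These p-values measure labelling and hybridization error between arrays of 1 pooled sample. Signals at background limit SLC7A11 in A2780CBNDXL to a bound.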
